A study of Mus musculus with 6 samples.

Results

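Asah1, Gla, Lipa and Tpp1 encode enzymes of the lysosomal lumen and Lamp1 encodes an abundant protein of the lysosomal membrane. The 5 genes are described here in cultured murine airway smooth muscle cells of transgenic mice labelled 2AR-OE, set against nontransgenic cells. They were taken as every probe of the array that the platform annotation assigns to these symbols, which gave 8 of 8734 probes and 5 of 5644 genes that had 1 symbol and enough values for a fit. The symbols themselves had been chosen from the ratios on these same 6 arrays, so the ratios of the 5 genes are a description and carry no test. The dye and set comparisons were not used in that choice and are tested. Genes chosen from their ratios on these arrays can be more even across them, so these tests are not independent of the choice.

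Lysosomes are acidic organelles in which lipids, glycans and proteins from endocytosis and autophagy are broken down. Asah1 is acid ceramidase, which splits ceramide into sphingosine and a fatty acid. Gla is alpha-galactosidase A, which removes the terminal galactose of globotriaosylceramide, and Lipa is lysosomal acid lipase, which hydrolyses cholesteryl esters and triglycerides. Tpp1 is tripeptidyl peptidase 1, a protease that removes tripeptides from the amino end of proteins and is thus no lipid or glycan hydrolase. Lamp1 is a heavily glycosylated protein that lines the inner face of the membrane. Transcription factors of the MiT family, such as TFEB and TFE3, bind E-box sequences near many lysosomal genes.

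The cells were grown from tracheal explants of the 2AR-OE mice and of nontransgenic mice labelled NTG. RNA came from passages 8 to 10, and cultures were started in 20% fetal calf serum; per the labels over 90% of such cells stain for smooth muscle actin. Each culture began from the segments of a single trachea. The sources used here give no strain, age, transgene promoter or pooling of animals. Each of the 6 two-colour arrays set RNA of both kinds of cell against each other. The dyes were exchanged on arrays 1C and 2C, where transgenic RNA carried Cy3; on 1A, 1B, 2A and 2B it carried Cy5. Arrays numbered 1 are called set 1 and arrays numbered 2 set 2, since the labels do not say what the number or the letter means. Nothing says that the arrays came from separate cultures or animals, so errors and p-values cover only how arrays varied, which can be technical.

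All values are log2 ratios as deposited, and they are likely transgenic over nontransgenic: channel 1 holds Cy5 on every array and held transgenic RNA on 4 of 6. If the ratio is the reverse, every sign below turns. The columns of 1C and 2C were read as turned by the authors to the direction of the others. Of 32 probes beyond 2-fold and positive on all 4 arrays whose transgenic RNA carried Cy5, 32 were also positive on both swapped arrays; of 15 negative ones 8 stayed negative on both and 6 turned positive on both. If the columns were not turned, the ratios below carry a dye bias and the dye comparison holds the transgenic effect. In RNA from whole cultures, a change in the share of cells of one kind and a change in RNA per cell cannot be told apart. The files used hold ratios without intensities, so how bright each spot was cannot be given, and the number of arrays limits the precision.

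The RefSeq promoter table (GRCm38.p6) held 4 of the 5 genes: Gla, Lipa, Tpp1 and Lamp1. The 250 bases before the start of transcription were searched on both strands for the palindromic E-box CACGTG and for TGACG, the half-site of the cyclic AMP response element. These do not overlap in any of the matches below. Lamp1 had 4 E-boxes, starting 61, 45, 28 and 15 bases before its start. Gla had 2, at 227 and 194 bases, with a cyclic AMP half-site at 213 bases between them. Tpp1 had a half-site at 43 bases and no E-box match, and Lipa had neither. The windows of Lamp1 (chr8:13158911-13159160, plus strand) and Gla (chrX:134601006-134601255, minus strand) are shown because they hold several matches close together, which is rare among promoters; E-boxes are in capitals.

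Lamp1: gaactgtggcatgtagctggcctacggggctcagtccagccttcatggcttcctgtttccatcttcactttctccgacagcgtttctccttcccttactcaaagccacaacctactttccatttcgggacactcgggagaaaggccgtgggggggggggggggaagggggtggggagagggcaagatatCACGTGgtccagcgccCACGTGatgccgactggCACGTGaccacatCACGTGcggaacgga
Gla: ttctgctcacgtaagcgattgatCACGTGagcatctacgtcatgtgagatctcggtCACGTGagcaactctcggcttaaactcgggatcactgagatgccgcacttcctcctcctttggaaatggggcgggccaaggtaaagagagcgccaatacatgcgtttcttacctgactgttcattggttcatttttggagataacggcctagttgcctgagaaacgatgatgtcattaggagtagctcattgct

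Over all 32851 promoter windows of this length, 6.02% held at least 1 E-box, 0.429% at least 2 and 0.0213% (7 windows) at least 4. At least 1 half-site stood in 17.8%. A match is a description of the letters and shows no binding.

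**Figure D1:**
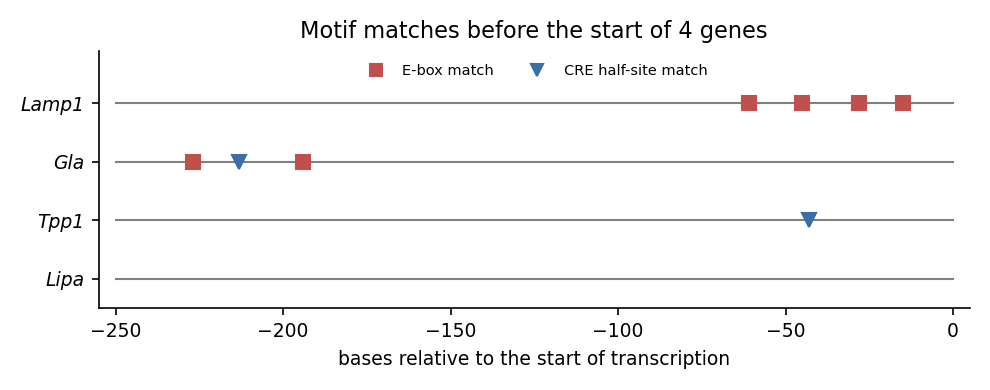
Positions of motif matches in the 250 bases before the start of transcription (x axis, in bases) of 4 genes. Squares are E-box matches and triangles are cyclic AMP half-site matches; Lamp1 has 4 squares within 61 bases of its start, Gla has 2 farther away, and Lipa has no symbol.

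All 8 probes of the 5 genes had positive ratios on all 6 arrays, 48 of 48 values. Over the whole table, 924 of 8430 probes with 6 values were positive on every array. The fitted log2 ratios ran from 0.52 for Lipa to 0.90 for Asah1, which corresponds to 1.44-fold to 1.87-fold, with a median of 0.56 beside 0.0018 over all 6807 fitted rows. The fit was limma's linear model with a transgenic and a dye term, and errors are its standard errors over n = 6 arrays unless stated. At adjusted p under 0.05, 5 of the 5 genes were called higher, where 4.03% of all rows were; since they were chosen on this contrast, nothing is read from that count. With the set number as a replicate block 4 were called, all but Lamp1.

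Asah1, the ceramidase, had the highest fitted ratio and mean of the 5 genes, though Gla was above it on array 2A. Its single probe gave 1.29, 1.23 and 0.98 on arrays 1A, 1B and 1C and 0.69, 0.76 and 0.64 on arrays 2A, 2B and 2C. The fitted log2 ratio was 0.90 ± 0.12, or 1.87-fold with a 95% interval of 1.53 to 2.28. All 3 arrays of set 1 lay above all 3 of set 2. Of all fitted rows, 1.82% had a ratio at least as high.

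Lamp1, the membrane protein, followed nearly the same order over the arrays at a lower level, with 1A and 1B exchanged at the top. Its single probe gave 0.99, 0.99 and 0.70 on 1A, 1B and 1C and 0.47, 0.59 and 0.26 on 2A, 2B and 2C. The fitted log2 ratio was 0.62 ± 0.11 (1.54-fold, 95% interval 1.27 to 1.86). Asah1 exceeded Lamp1 on 6 of 6 arrays, by 0.27 ± 0.072 (SD over arrays), so their difference varied far less than either gene.

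Gla, the galactosidase, varied less than those genes, with no common shift between the sets. Its single probe gave 0.75, 0.53 and 0.41 on 1A, 1B and 1C and 0.73, 0.71 and 0.47 on 2A, 2B and 2C, with a fitted log2 ratio of 0.56 ± 0.064 (1.48-fold, 95% interval 1.32 to 1.64). The 2 arrays with transgenic RNA in Cy3 held its lowest values.

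Lipa, the acid lipase, was nearly level on 5 arrays as a mean of its 2 probes. The mean of its 2 probes gave 0.63, 0.70 and 0.25 on 1A, 1B and 1C and 0.64, 0.63 and 0.54 on 2A, 2B and 2C. In this mean array 1C alone stood apart, on the low side. The fitted log2 ratio was 0.52 ± 0.067 (1.44-fold, 95% interval 1.28 to 1.61), and without array 1C it was 0.59.

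Tpp1, the peptidase, had the narrowest range as a mean of its 3 probes. The values were 0.57, 0.56 and 0.71 on 1A, 1B and 1C and 0.53, 0.50 and 0.40 on 2A, 2B and 2C, with a fitted log2 ratio of 0.55 ± 0.068 (1.46-fold, 95% interval 1.30 to 1.64). The lowest value came from array 2C and the highest from array 1C, the arrays with exchanged dyes.

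Below Asah1 the order of the genes did not exceed their spread. Lamp1 exceeded Gla by 0.064 ± 0.30 (SD of the difference over 6 arrays, higher on 3 of 6). Gla exceeded Tpp1 by 0.056 ± 0.20 (higher on 4 of 6). Tpp1 stood above Lipa in the fit but below it in the plain mean over arrays (difference -0.019 ± 0.24), since the fit balances the dyes.

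**Figure D2:**
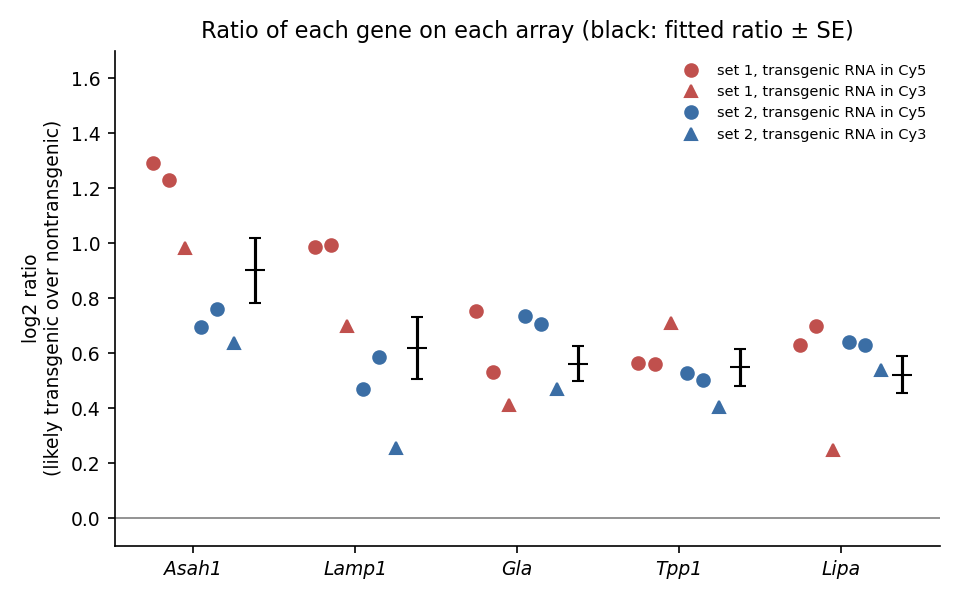
Log2 ratio (y axis) of Asah1, Lamp1, Gla, Tpp1 and Lipa on each of the 6 arrays, probes of a gene averaged; colour gives the set and shape the dye of transgenic RNA, and the black mark is the fitted ratio ± SE. Every value lies above 0, and all of set 1 lies above all of set 2 for Asah1, Lamp1 and Tpp1.

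One of the 3 probes of Tpp1 departed from the others over the arrays. Probe 776048 was even, with 0.80, 0.75 and 0.59 on 1A, 1B and 1C and 0.60, 0.60 and 0.52 on 2A, 2B and 2C (fitted alone, 0.62 ± 0.066). Probe 574070 gave 0.88, 0.89 and 0.21 on set 1 and 0.70, 0.65 and 0.42 on set 2 (0.55 ± 0.073). Probe 483150 gave 0.014, 0.050 and 1.32 on set 1 and 0.28, 0.26 and 0.27 on set 2 (0.47 ± 0.15). Fitted alone, this probe was not called at adjusted p under 0.05, while the others were. On array 1C it was the highest of the 3 probes and on 1A and 1B the lowest by far, so the narrow range of the gene's mean hides opposite deviations. With this probe left out, a choice made after seeing the data, the fitted log2 ratio of Tpp1 was 0.59.

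The 2 Lipa probes also differed by array. Probe 618910 gave 0.24, 0.57 and 0.18 on 1A, 1B and 1C and 0.71, 0.62 and 0.61 on 2A, 2B and 2C (0.47 ± 0.10). Probe 620870 gave 1.02, 0.83 and 0.32 on set 1 and 0.57, 0.63 and 0.46 on set 2 (0.58 ± 0.086). Fitted alone, probe 620870 was called at adjusted p under 0.05 and probe 618910 was not. Both probes were low on array 1C, and they parted most on 1A (0.24 and 1.02). The level value of the gene's mean on 1A thus hides probes far apart. Asah1, Gla and Lamp1 rest on 1 probe each, so no second probe could be set beside them.

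**Figure D3:**
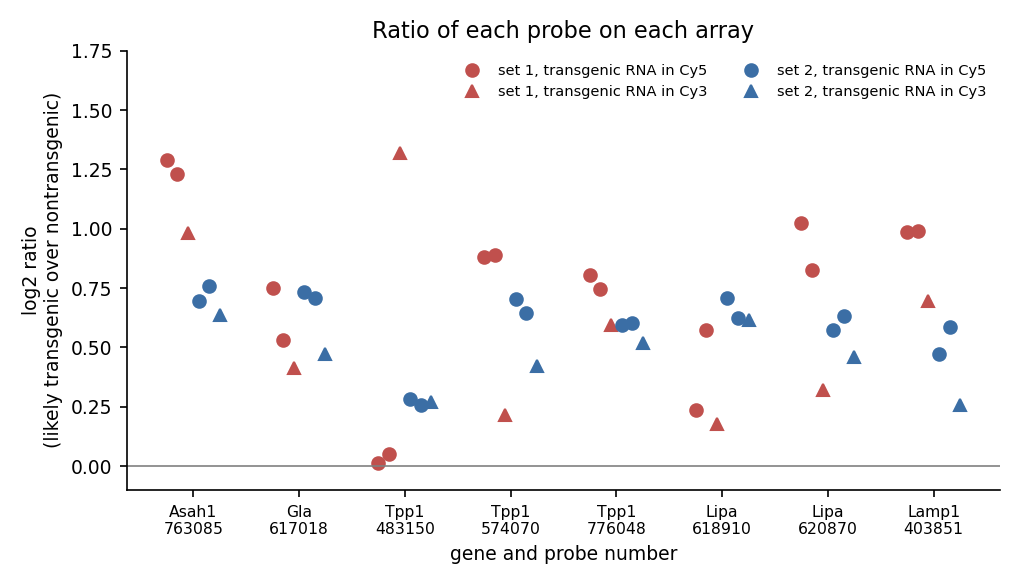
Log2 ratio (y axis) of each of the 8 probes (x axis: gene and probe number) on the 6 arrays, with colour for the set and shape for the dye of transgenic RNA. Probe 483150 of Tpp1 spans 0.014 to 1.32, the widest range of the 8.

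The dye comparison asked whether the ratio depended on which dye carried transgenic RNA. None of the 5 genes passed (0 of 5, limma adjusted p from 0.347 for Lipa to 0.954 for Tpp1), and 0 had an unadjusted p under 0.05; 1 of 6807 rows passed (0.0147%), and an unadjusted p under 0.05 was found in 18.2%. For Gla the mean was 0.68 with transgenic RNA in Cy5 and 0.44 in Cy3, a difference of 0.24 with a 95% interval from -0.073 to 0.55. The differences of Lipa (0.26, -0.071 to 0.58) and Lamp1 (0.28, -0.27 to 0.84) were of similar size. Asah1 differed by 0.18 (-0.39 to 0.76) and Tpp1 by -0.017 (-0.35 to 0.32). The small difference of Tpp1 averages probes that went opposite ways. Probe 483150 had means of 0.15 in Cy5 and 0.79 in Cy3. Probe 574070 had 0.78 and 0.32, and probe 776048 had 0.69 and 0.56. The intervals are wide, so these tests do not show equal ratios in both dyes. On both dyes the mean ratio of each gene lay above 0, between 0.39 and 0.81 with Cy3. The choice of the genes from these ratios can favour small dye differences and means above 0.

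The set comparison asked whether the ratio differed between arrays numbered 1 and 2. Asah1 had a mean of 1.17 in set 1 and 0.70 in set 2, a difference of -0.47 ± 0.089 (limma adjusted p = 0.0772), and Lamp1 had means of 0.89 and 0.44, a difference of -0.45 ± 0.081 (limma adjusted p = 0.0747). Neither passed the threshold of 0.05, and no row of the table did (0 of 6807, 0%). An unadjusted p under 0.05 was found in 23.7%, with these 2 genes among them. The sets did not overlap for 3 of the 5 genes, Asah1, Lamp1 and Tpp1, as for 25.2% of all rows with 6 values. The exact two-sided permutation test of set labels gave p = 0.1 for each of these 3 genes, the smallest value that 3 arrays against 3 allow. The difference was -0.13 ± 0.094 for Tpp1 (limma adjusted p = 0.435), 0.071 ± 0.096 for Gla (0.679) and 0.076 ± 0.10 for Lipa (0.684). The split of Tpp1 held only for the mean of its probes, since the sets overlapped in each probe taken alone. Probe 776048, the most even, gave 0.594 on 1C beside 0.597 and 0.603 on 2A and 2B. For Lipa, probe 618910 alone had all of set 2 (0.61 to 0.71) above all of set 1 (0.18 to 0.57).

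The array-wide spread of ratios moved with the set. The median absolute deviation was 0.350, 0.411 and 0.547 on arrays 1A, 1B and 1C and 0.319, 0.293 and 0.281 on 2A, 2B and 2C. With all arrays scaled to 1 spread, the set difference became -0.18 for Asah1 (limma adjusted p = 0.53) and -0.26 for Lamp1 (limma adjusted p = 0.225). With array weights, both passed, at -0.52 (limma adjusted p = 0.0406) and -0.47 (limma adjusted p = 0.0458), in a setting that called 518 rows of the table. Over all alternatives the limma adjusted p ran from 0.0406 to 0.76 for Asah1 and from 0.0458 to 0.83 for Lamp1, the highest with the signs of the swapped columns turned. The part of the array-wide spread in the difference between sets was not tested further.

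**Figure D4:**
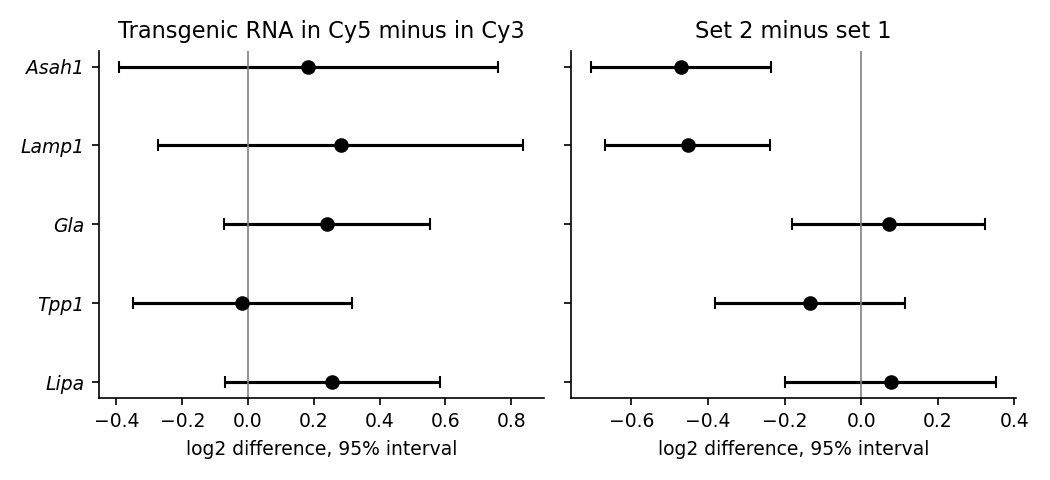
Difference in log2 ratio (x axes) with its 95% interval for the 5 genes: arrays with transgenic RNA in Cy5 minus those in Cy3 (left) and set 2 minus set 1 (right). All 5 dye intervals include 0; the set intervals of Asah1 and Lamp1 lie below 0 before adjustment over the table.

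Other lysosomal genes were taken from lists by role. Of 65 measured, 10 were called higher (15.4%) and 2 lower (3.08%), beside 4.03% higher and 3.09% lower over all rows; their median log2 ratio was 0.14, and 46 of 65 were positive. The median over all rows was 0.0018, with 50.3% of rows positive. The lists were drawn up with results of these arrays known, and counts by list are small. They do not hold every measured gene of a role. Atp6v0e2, a further proton pump subunit at 0.22 ± 0.15, is not listed.

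Among hydrolases of lipids none of 3 others was called: Smpd1, acid sphingomyelinase, was at 0.27 ± 0.18, Ppt1, which removes fatty acids from proteins, at -0.024 ± 0.071, and Ppt2 at -0.24 ± 0.16. The fitted ratios of Asah1, Gla and Lipa were above all 3, and these differences were not tested. Since Asah1, Gla and Lipa were chosen on this contrast, nothing is read from that order. Of 4 glycan hydrolases, Man2b2, a lysosomal alpha-mannosidase, rose (0.43 ± 0.068, limma adjusted p = 0.021), and Arsb, which desulfates dermatan and chondroitin sulfate, was at 0.51 ± 0.12 without passing (limma adjusted p = 0.0685). Gusb, beta-glucuronidase, was at 0.092 ± 0.077. Sumf1, which activates sulfatases in the endoplasmic reticulum, rose (0.49 ± 0.095, limma adjusted p = 0.036). It was the 1 gene called of 6 listed as other lumen proteins, though it acts outside the lysosomal lumen.

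Proteases gave 3 higher and 1 lower of 7 besides Tpp1. Scpep1, a serine carboxypeptidase, rose (0.88 ± 0.15, limma adjusted p = 0.025), with 1.20, 1.25 and 1.20 on arrays 1A, 1B and 1C and 0.63, 0.70 and 0.42 on 2A, 2B and 2C. Its arrays thus split by set as those of Asah1 and Lamp1 did. Those of the cathepsin Ctsl split likewise, with 1.47, 1.40 and 1.07 on 1A, 1B and 1C and 0.64, 0.75 and 0.43 on 2A, 2B and 2C. Of the cathepsins, Ctsl (0.91 ± 0.16) and Ctsb (0.45 ± 0.064) rose, and Ctsc, dipeptidyl peptidase 1, which activates serine proteases of immune cells, fell (-0.75 ± 0.11); limma adjusted p-values were 0.03, 0.016 and 0.016. Ctss (0.39 ± 0.20) and Ctsz (0.18 ± 0.14) did not pass. Ctsc lay between -0.52 and -0.21 where transgenic RNA carried Cy5 and at -1.46 and -0.80 on 1C and 2C. Without a dye term Ctsc was not called (limma adjusted p = 0.0759).

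All 12 other membrane proteins had lower fitted ratios than Lamp1. Since Lamp1 was chosen on this contrast, nothing is read from that order. Of 12 others, Ostm1, the partner subunit of the lysosomal chloride transporter Clcn7, rose (0.49 ± 0.098, limma adjusted p = 0.0402), and Gpr137b fell (-0.60 ± 0.098, limma adjusted p = 0.0224). Scarb2, the receptor that carries beta-glucocerebrosidase to lysosomes, was at -0.034 ± 0.084, Npc1, the cholesterol exporter, at 0.0016 ± 0.092, and Cd68 at 0.011 ± 0.091. The median of the 12 was 0.048. Gpr137b lay between -0.41 and -0.17 where transgenic RNA carried Cy5 and at -1.20 and -0.59 on 1C and 2C. Without a dye term Gpr137b was not called (limma adjusted p = 0.0783). Of the 6 proton pump subunits listed, which acidify the lumen, 0 were called at adjusted p under 0.05 by limma. Their ratios ran from -0.022 for Atp6v1c1 to 0.26 for Atp6ap1, and 5 of 6 were positive.

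Of 14 genes that sort proteins to lysosomes, Vps26a, a subunit of the retromer, rose (0.55 ± 0.11, limma adjusted p = 0.0395), and Vps35, a further subunit, was at 0.48 ± 0.11 (limma adjusted p = 0.0568). Igf2r, the large mannose 6-phosphate receptor, was at -0.14 ± 0.082 and Sort1 at -0.12 ± 0.070. Of 13 genes of MiT factors and autophagy, 3 rose: Bnip3 (0.85 ± 0.096, limma adjusted p = 0.00885) and Bnip3l (0.55 ± 0.073, limma adjusted p = 0.0131), receptors for the removal of mitochondria, and Flcn, a regulator of nutrient signalling at the lysosome (0.34 ± 0.070, limma adjusted p = 0.0434). Tfe3, the one MiT factor measured, was at 0.023 ± 0.17, and Map1lc3b, a protein of the autophagosome membrane, at 0.57 ± 0.13 without passing (limma adjusted p = 0.0528). Bnip3l lay between 0.88 and 1.21 where transgenic RNA carried Cy5 and at 0.036 and 0.15 on 1C and 2C. Without a dye term Bnip3l (limma adjusted p = 0.0629) and Flcn (limma adjusted p = 0.0603) were not called, while Bnip3 was (limma adjusted p = 0.0036).

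**Figure D5:**
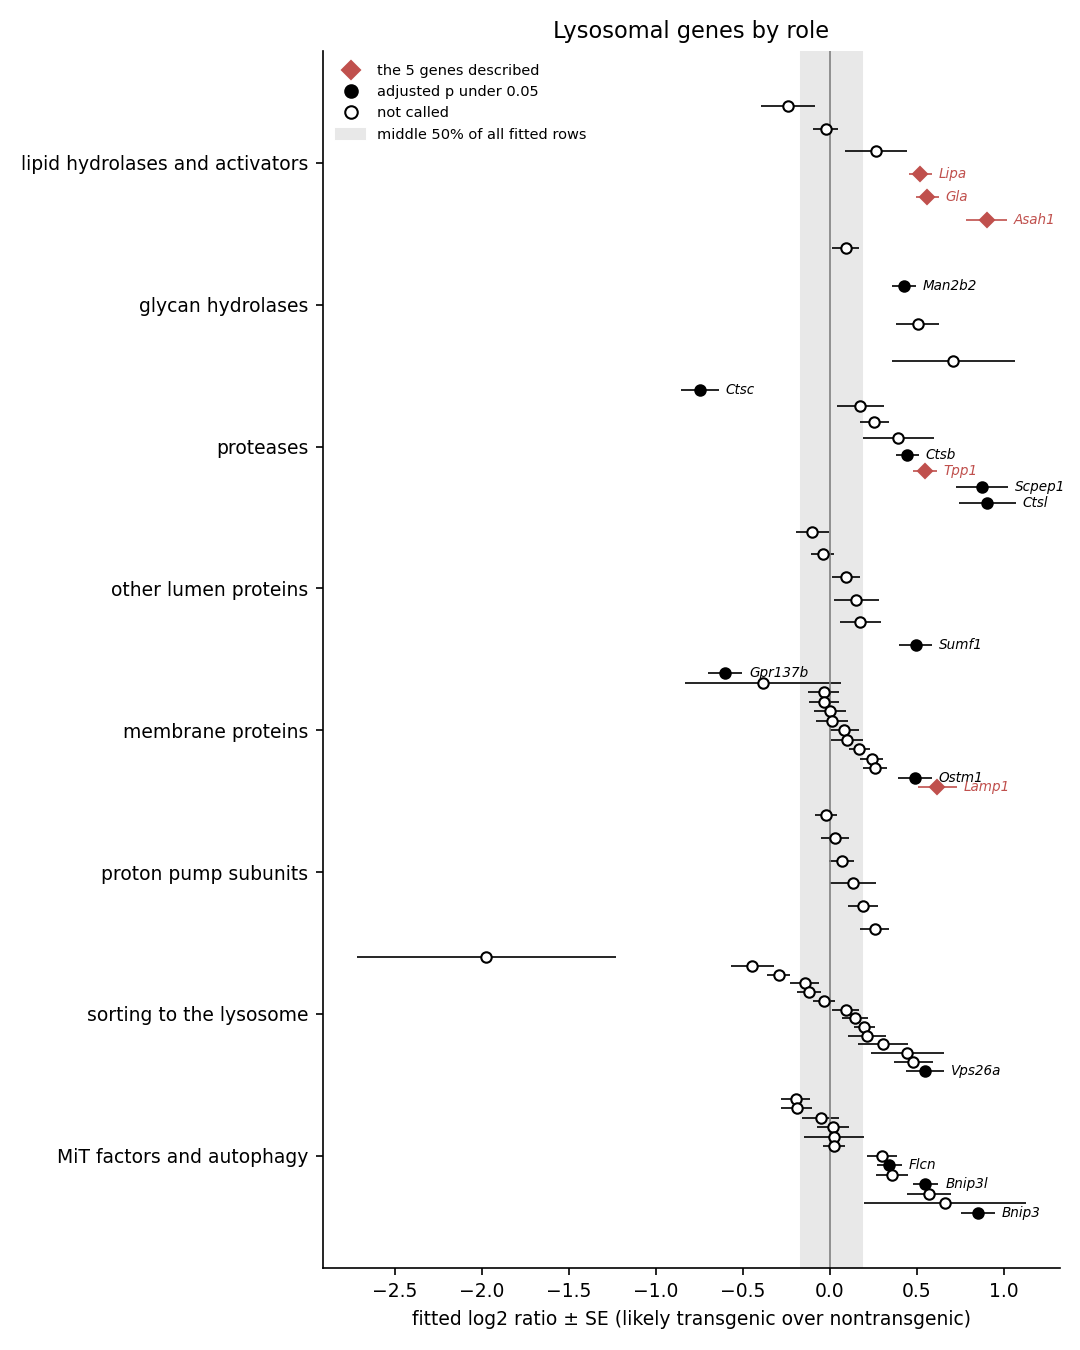
Fitted log2 ratio ± SE (x axis) of lysosomal genes by role, with diamonds for the 5 genes described, filled circles for other genes at adjusted p under 0.05 and open circles for the rest; the grey band is the middle 50% of all fitted rows. The 5 diamonds lie right of the band, while most membrane, proton pump and sorting genes lie in or near it.

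The calls of these genes varied with the model and the arrays used. Of the 12 called genes, 3 higher and 0 lower kept a call with the set number as a random replicate block, at the same fitted ratios, and all 12 kept it with the set number as a fixed term. Over the lists, between 2 and 16 genes were called higher with 1 array left out. Array 2C raised the count most when left out (16 higher and 6 lower); without any one of the other 5 arrays 2 to 4 were called higher.

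E-boxes were also counted before other lysosomal genes. Of 53 with a promoter window, 11 (20.8%) had at least 1 CACGTG in the 250 bases, where the window with most matches was taken for a gene with several, and of 9 called genes with a window 4 had one: Vps26a with 2 matches and Bnip3, Ctsl and Sumf1 with 1 each. Counted by gene in the same way, the share was 6.86% of all 27025 genes in the table. The half-site TGACG stood in 22.6% of the 53 and in 19.8% of all genes.

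The genes nearest to each of the 5 were found by the root mean square difference of the 6 ratios, over 5609 other genes with 1 symbol and 6 values. Nearest to Asah1 were Klf6, a Kruppel-like transcription factor (difference 0.12), Rasa3, a GTPase-activating protein (0.13), and Amotl2 (0.13). Nearest to Lamp1 were Cnpy2 (0.079), Cnn1, the smooth muscle protein calponin 1 (0.089), and Rnf13 (0.11). Since nearness was taken over these same ratios, both groups repeat the higher ratios of set 1 by the way they were chosen. Klf6 gave 1.46, 1.13 and 0.87 on 1A, 1B and 1C and 0.75, 0.76 and 0.46 on 2A, 2B and 2C. Nearest to Gla were Pvr (0.076), Hdac5, a histone deacetylase (0.086), and Antxr1 (0.099). Lipa lay nearest to Pvr as well (0.10), then to Jph2 and Zzz3 (both 0.10), and Tpp1 to B3galnt1 (0.10), Hipk2 (0.10) and Aktip (0.10). Among the 5 genes themselves Gla and Lipa were closest (0.12) and Asah1 and Lipa farthest apart (0.46). These differences describe 6 arrays and were not tested.

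Markers of other cells of a tracheal explant were read on the same scale. Macrophages are rich in lysosomal enzymes; of 7 of their markers and those of leukocytes, 0 were called by limma, 2 were positive, and the median was -0.17, with array medians from -0.37 to 0.031. Cd14 was at -0.22 ± 0.087, Adgre1 at -0.19 ± 0.062 and Tyrobp at 0.50 ± 0.15. Of 6 fibroblast markers, Thy1 (2.73 ± 0.21) and Mfap5 (0.81 ± 0.074) rose, the median was 0.76, and array medians ran from 0.15 to 1.16. Dpt (1.67 ± 0.46), Lum (0.70 ± 0.17), Pdgfra (-0.023 ± 0.14) and Col1a1 (-1.21 ± 0.31) did not pass. Dpt was at -1.01 on array 1B and between 1.83 and 2.27 elsewhere. Col1a1 was at -3.28 on array 1C and between -1.01 and 0.24 elsewhere. Of 3 epithelial markers Cdh1 rose (0.32 ± 0.059), and of 3 smooth muscle markers Cnn1 rose (0.59 ± 0.10) while Cald1 (-0.12 ± 0.063) and Smtn (-0.053 ± 0.082) did not pass. The called markers, Thy1, Mfap5, Cdh1 and Cnn1, moved in the direction of the 5 genes, while the markers not called lay on both sides of 0. The part of any cell type in the result was not tested. Ratios do not show whether a marker is present in the cells.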

How the data were processed

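The authors hybridised Cy5- and Cy3-labelled cDNA competitively to printed slides, per the labels' protocols, and deposited 1 log2 ratio per probe and array. What scanner, background correction, normalization, filters and ratio direction they used is not given in the sources used here. Log2 columns that the authors deposited have medians between -0.0013 and 0.0007, so they were already centred. Between 8495 and 8555 of 8734 probes had a value per array, and 0 to 63 lay at the floor (a ratio of 0.01).

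Probes were named from the platform annotation: 7540 had 1 symbol, 14 several and 1180 none. All 5 genes matched RefSeq by Entrez ID. Probes of 1 symbol were averaged per array; rows with under 4 values, or with values in 1 dye orientation, were left out (6807 stayed). limma 3.58.1 (R 4.3.3) fitted transgenic and dye terms by lmFit and eBayes, with Benjamini-Hochberg adjustment over all rows; a further term gave set 2 minus set 1. The fit was tested on simulated data. Python 3.11.15 and matplotlib 3.10.9 drew figures and searched promoters.

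The members and lists were chosen with earlier results of these data known. Named beyond the 5 are lysosomal list genes past adjusted p of 0.05, cathepsins and the 3 nearest genes per member; other list genes named with values were chosen after these were seen. A further gene of that rule is not reported here. Alternatives covered probe handling, the floor, scaling, array weights, dye and set terms, the sign of the swapped columns and each array left out.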

Additional observations from a re-analysis of the deposited data

Results flagged for a closer look

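Values were examined in 44 groups of 4 or 6 arrays (the 5 genes, the separate probes of Tpp1 and Lipa, and the called lysosomal genes). Of these, 4 held a value far from the rest, where chance gives about 1 in 20 separate groups. The groups overlap, since the 4 arrays are among the 6 and gene means stand beside their own probes. The count is thus not read against that rate. Lipa, as the mean of its probes, was at 0.25 on array 1C against 0.54 to 0.70 on the other 5. Probe 483150 of Tpp1 was at 1.32 on array 1C against 0.014 to 0.28 elsewhere. Vps26a was at 1.11 on array 1A, apart from the other arrays both among the 4 with transgenic RNA in Cy5 and among all 6, where the rest lay between 0.36 and 0.52. Array 1C also had the widest spread of ratios over the table (median absolute deviation 0.547) and the most values at the floor (63).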

How the results depend on the processing

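With the sign of both swapped columns turned, the transgenic and dye terms exchange: log2 ratios became 0.092 for Asah1, 0.12 for Gla, 0.13 for Lipa, 0.14 for Lamp1 and -0.0086 for Tpp1, with 1 row called for the transgene, 484 for dye and 0 lysosomal genes either way. Under the other alternatives the ratios of the 5 genes stayed positive and within 1 SD between arrays of the reported value. With 1 array left out they ranged from 0.82 to 0.99 for Asah1, 0.55 to 0.59 for Gla, 0.47 to 0.62 for Tpp1, 0.45 to 0.59 for Lipa and 0.51 to 0.73 for Lamp1; without 1C or 2C the one array left in its orientation is assumed to vary like the others. Lamp1 was not called with the replicate block, with array weights or without any one of 1A, 1B, 2A, 2B and 1C. Asah1 was not called with array weights or without 1C, and Lipa without 2A. The cause was not tested.

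Rows called for the transgene, 484 as reported, were 197 with the set number as a random replicate block (correlation 0.295), 1168 with it as a fixed term, 1071 on the 4 Cy5 arrays, 159 with array weights, and 169 (without 2A) to 1689 (without 2C) with 1 array left out; 250 rows passed without 1A, 204 without 1B, 175 without 2B and 190 without 1C. Lysosomal genes called higher, 10 as reported, were 3, 17 and 1 with the replicate block, the fixed term and array weights, and 2 to 16 with 1 array left out; those called lower, 2 as reported, were 0 with the replicate block or without a dye term, 1 with array weights and 0 to 6 with 1 array left out. Rows called for dye were 0 with floor values missing or probes fitted singly and 1 to 987 with 1 array left out. Rows called for set were 3 with scaled arrays, 518 with array weights and 1 with probes fitted singly.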

Other observations

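Some lysosomal genes owed their fitted log2 ratio to a single array. Manba, beta-mannosidase, was at 2.67 on array 1C and between -0.25 and 0.30 on the other 5. Uvrag, an autophagy protein, was at 3.32 on array 1C and between -0.43 and 0.12 elsewhere. Clcn7, the chloride transporter, was at -2.62 on array 1B and between -0.47 and 0.61 elsewhere. Gga2, a sorting adaptor, lay at the floor on array 1C and between -1.09 and 0.42 elsewhere. None of the 4 genes was called.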
